A study of Arabidopsis thaliana with 121 samples.

Results

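The transcriptomes described here are those of 6 Arabidopsis thaliana plants that were transformed with CDCA7α lacking its N-terminus (CDCA7α dN-ter), set against 4 untransformed plants of the same double mutant, cdca7α cdca7β-3. They were chosen by genotype label alone and make up 10 of the 121 libraries of the series, and 10 of the 82 libraries of the set that tested CDCA7α constructs. Each library was a 3′-tag mRNA-seq library, which counts the 3′ ends of polyadenylated transcripts by unique molecular identifier, from a rosette leaf of an individual plant at 28 days. The same set held the groups used for comparison, which were 5 wild-type (WT) plants, 5 cdca7α cdca7β-3 plants with full-length CDCA7α and 7 with the zinc-finger mutant CDCA7α C183S C209S. An earlier set of 39 libraries, each from pooled rosettes at 31 days and sharing no plant with these, provided an independent list of CDCA7-dependent transposable elements (TEs).

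All the plants of cdca7α cdca7β-3, transformed or not, carried the T-DNA insertion of cdca7α-2 in CDCA7α and a CRISPR deletion in CDCA7β. The constructs were driven by the CDCA7α promoter, ended in a C-terminal mTurquoise2-3xcMyc tag and the UBQ10 terminator, and carried an mVenus reporter by which transformed seeds were picked. They were introduced before the endogenous genes had both been lost. Each dN-ter plant was a primary transformant, so the place and number of insertions could differ from plant to plant. The boundary of the truncation was not given in the sources used here.

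CDCA7 proteins are partners of DDM1, a chromatin remodeller that lets DNA methyltransferases reach nucleosomal DNA in heterochromatin. The N-terminus of CDCA7α holds the conserved motif that binds DDM1, and its zinc finger recognises CG sites methylated on a single strand, the state left behind by DNA replication. Where CG methylation is lost from TEs, many of them are transcribed again. The comparison of dN-ter with untransformed plants asks whether TE silencing is restored by a CDCA7α without the DDM1-binding end. Reads on the tag were used to look for transcripts of the construct. The paper reported no expression of this transgene and left the truncation unevaluated. Since the tag was not above background here either, the TE levels of these plants do not answer the question.

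The libraries of the 6 dN-ter plants held 2083813 to 4222490 counts and those of the 4 untransformed plants 2104231 to 3859021, of which plastid transcripts took 5.13% to 16% and 8.79% to 12.5%. Across the 10 plants the pairwise correlation of expression lay between 0.790 and 0.947. The first principal component, with 34.5% of the variance, set dN-ter plant 2 apart, at 107 where the other 9 plants lay between -59.7 and 48.5. This plant was high for salicylic acid defence genes and low for photosynthesis genes. Several counts and medians that rest on it are also given without it. Calls and fold changes of single genes against full length or C183S C209S are given only with it. Mesophyll markers (RBCS1A, CAB1 and CA1) were abundant in all 10 plants, with summed levels of 3808 to 24995 CPM (reads scaled to library size) in dN-ter and 5723 to 30511 in untransformed plants. The 5 root markers summed to 5.53 to 10.5 CPM in dN-ter and 5.49 to 10.0 CPM in untransformed plants. The 5 markers of flowers and meristems summed to 0.240 to 30.6 CPM in dN-ter and 4.50 to 47.4 CPM in untransformed plants. Of these markers, SEP3 had 0.240 to 29.7 CPM in dN-ter and 2.50, 19.5, 46.8 and 43.5 CPM in untransformed plants. The floral organ genes AG and PI had at most 2.76 CPM in any of the 10.

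The dN-ter construct was not detectable above background in these leaves. The 6 dN-ter plants had 0, 2, 0, 0, 1 and 0 reads on the mTurquoise2-3xcMyc tag. The 4 untransformed plants, which carry no tag, had 1, 2, 0 and 0 reads. The groups overlapped completely, and 4 of 6 dN-ter plants had no tag read at all. Background reads on the tag reached 5 in a plant without a construct, over 18 such plants of the set, and no dN-ter plant exceeded that number. The log2 CPM of the tag was -0.43 ± 0.34 (SD, n = 6) in dN-ter and -0.21 ± 0.48 (SD, n = 4) in untransformed plants. Their difference was -0.21 on the log2 scale, with a 95% interval of -0.83 to 0.42. A two-sided exact permutation test gave p = 0.381, and its smallest possible p at 6 against 4 plants was 0.00952.

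**Figure D1:**
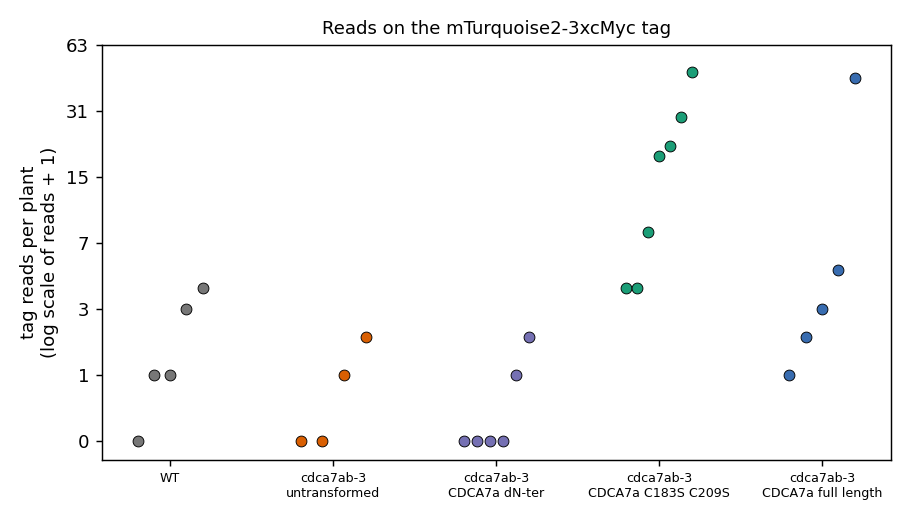
Reads on the mTurquoise2-3xcMyc tag in each plant of 5 genotypes (vertical axis, log scale of reads + 1; a point is a plant). The 6 dN-ter plants lie between 0 and 2 reads, as the untransformed plants do, whereas the plants with C183S C209S reach 47 reads and those with full-length CDCA7α 44.

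Tag reads were more numerous with other constructs of the set, and their number varied between plants. With full-length CDCA7α, the tag had 1, 3, 44, 2 and 5 reads. A single one of these 5 plants was above the background maximum of 5 reads, and the TE levels described below were low in all 5, so at this depth the tag does not tell whether a construct was transcribed in a given plant. With C183S C209S, the tag had between 4 and 47 reads (median 19), and 5 of 7 plants were above that maximum. Pooled over plants, the tag had 0.147 CPM in dN-ter (exact Poisson 95% interval 0.0303 to 0.430), 0.226 CPM in untransformed (0.0466 to 0.661) and 5.10 CPM in full-length plants (3.85 to 6.64), intervals that cover counting error only. The tag level was lower in dN-ter than in full-length plants by a log2 difference of -2.01 (95% interval -3.36 to -1.01). The two-sided exact permutation p was 0.00433, the smallest that this test can give. All 6 dN-ter plants lay at or below 2 reads, as did full-length plants 1 and 4, whose libraries were smaller. Scaled to library size, full-length plant 1 was at 0.753 CPM and dN-ter plant 2 at 0.480 CPM. WT plant 5, without a construct, was at 1.03 CPM, so the separation of the groups rests in part on single reads. Without full-length plant 3, which had 44 reads, the difference was -1.53 (exact permutation p = 0.00952). The mVenus feature of the reporter had 0, 0, 0, 2, 0 and 0 reads in the dN-ter plants.

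CDCA7α (AT4G37110) had few reads in any plant, and whether reads of a construct were counted on it was not tested. It had 0 reads in each of the 6 dN-ter plants, 1, 0, 1 and 0 in the untransformed plants and 2, 8, 8, 3 and 4 in the WT. It had 0, 2, 3, 5 and 0 reads in the full-length plants and 0, 1, 1, 2, 4, 0 and 2 in the C183S C209S plants, so that dN-ter was the only one of these 5 groups without a read. CDCA7β (AT2G23530) had 0 reads in all the dN-ter, untransformed and WT plants, and DDM1 (AT5G66750) had at most 4, so changes in either were not detectable at this depth. UBQ10, the ubiquitin gene whose terminator the constructs share, differed by 0.13 on the log2 scale between dN-ter and untransformed plants. SMP2 (AT4G37120), a splicing factor gene that neighbours CDCA7α, had 129, 227, 0, 99, 215 and 61 reads in the dN-ter plants and 56, 136, 139 and 172 in the untransformed plants. Its read count was thus 0 in dN-ter plant 3, whereas the other 9 plants had at least 56, and its log2 fold change was -0.15 (SE 0.33).

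TEs that depend on CDCA7 were expressed in dN-ter plants at levels that overlapped those of untransformed plants. The list was taken from the earlier set, in which 190 TEs were higher in cdca7ab_1 and 196 in cdca7ab_2 than in Col-0, of 978 tested. The background of these calls over all features was 1.36% and 1.4%. In ddm1_2_G2 of that set 10.2% of features were higher, 750 TEs among them, and this longer list served as an alternative. The 160 TEs shared by the 2 cdca7 mutants were used, whatever their level in the plants described here, and 145 of them passed the filter on low counts in the set of constructs. Their level, the mean log2 CPM over all 160, was 3.15, 2.55, 3.23, 2.83, 3.12 and 3.24 in the 6 dN-ter plants. It was 3.11, 3.36, 3.16 and 2.90 in the 4 untransformed plants. The lowest value was that of dN-ter plant 2 and the highest that of an untransformed plant, and the other 8 plants were interspersed. The means were 3.02 ± 0.27 (SD, n = 6) and 3.13 ± 0.19 (SD, n = 4), a difference of -0.11 that is smaller than either SD.

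**Figure D2:**
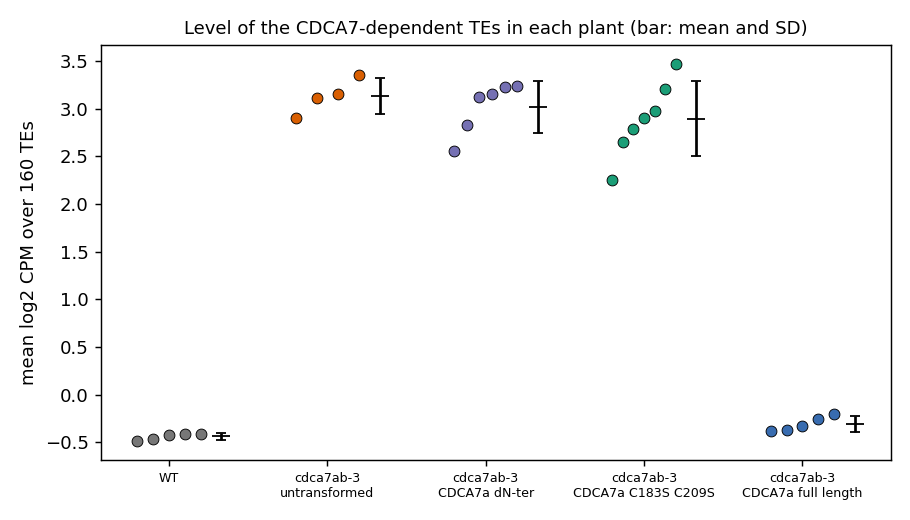
Level of the CDCA7-dependent TEs in each plant (vertical axis, mean log2 CPM over the 160 TEs of the earlier set; a point is a plant, and the bar beside each group is its mean and SD). The dN-ter plants lie between 2.55 and 3.24, among the untransformed plants at 2.90 to 3.36, and far above the WT and the full-length plants, all of which are below 0.

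In the WT the same level lay between -0.49 and -0.41, and with full-length CDCA7α between -0.38 and -0.20, so that none of the 6 dN-ter plants approached either group. Plants with C183S C209S had levels of 2.25 to 3.47 (median 2.90), which enclosed all 6 dN-ter values. Of the 160 TEs, 153 to 159 had at least 1 read in a dN-ter plant and 152 to 158 in an untransformed plant, against 23 to 39 in the WT and 23 to 41 in full-length plants. Over the 6 dN-ter plants, Pearson's r between the tag level and the TE level was -0.72 (exact permutation p = 0.2) and Spearman's rho was -0.52 (exact permutation p = 0.333), the only relation computed. The relation rests on plants 2 and 5, the only dN-ter plants with a tag read, and their reads were within background. The other 4 had the same tag level, so r cannot be computed without plants 2 and 5. With these ties no arrangement of the 6 plants could give a p of 0.05 or less, so the test decides nothing. In the full-length plants with 1, 3 and 2 tag reads the TE level was -0.38, -0.20 and -0.25.

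All TEs together took 0.731%, 0.653%, 0.691%, 0.717%, 0.862% and 0.729% of the counts outside organelle transcripts in the dN-ter plants. They took 0.685%, 0.772%, 0.803% and 0.748% in the untransformed plants. The groups overlapped, and both the lowest and the highest share belonged to dN-ter plants. The mean share was 0.730% ± 0.0707 (SD, n = 6) and 0.752% ± 0.0497 (SD, n = 4), a difference of -0.0215 percentage points (95% interval -0.103 to 0.0785, two-sided exact permutation p = 0.619). Without dN-ter plant 5, whose share was the highest, the difference was -0.0478 (exact permutation p = 0.143).

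Taken singly, none of the 420 TEs and none of the 16213 nuclear genes tested passed the threshold between dN-ter and untransformed plants. Calls required a change of 2-fold or more and an adjusted p no higher than 0.1, by the quasi-likelihood test of edgeR with Benjamini-Hochberg adjustment over the 17510 features that passed the filter. The count of calls was 0 in each direction (0% of features), and the smallest adjusted p was 0.509. Without adjustment, 1160 features (6.62%) had a p under 0.05, 634 of them higher and 526 lower in dN-ter. DESeq2 called 7 features (0.45% of the 1555 to which it gave an adjusted p) and limma voom called 1 (0.00571%). The median half-width of the 95% interval of a log2 fold change was 0.61 over all features and 1.77 over the 145 CDCA7-dependent TEs, so a 2-fold change in most single TEs was not detectable with 6 against 4 plants.

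Over the 145 tested TEs of the list, the median log2 fold change of dN-ter against untransformed plants was -0.08 (quartiles -0.51 and 0.21, range -1.70 to 1.82). Over all 420 TEs tested it was -0.10, and over all 17510 features 0.01. Of the 145, 61 were higher and 84 lower, and 138 lay within 2-fold of the untransformed mean. Their smallest adjusted p was 0.697 in the same edgeR test after Benjamini-Hochberg adjustment, and the 95% interval covered 0 for 144 of 145. The interval excluded a 2-fold decrease for only 5 of them.

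**Figure D3:**
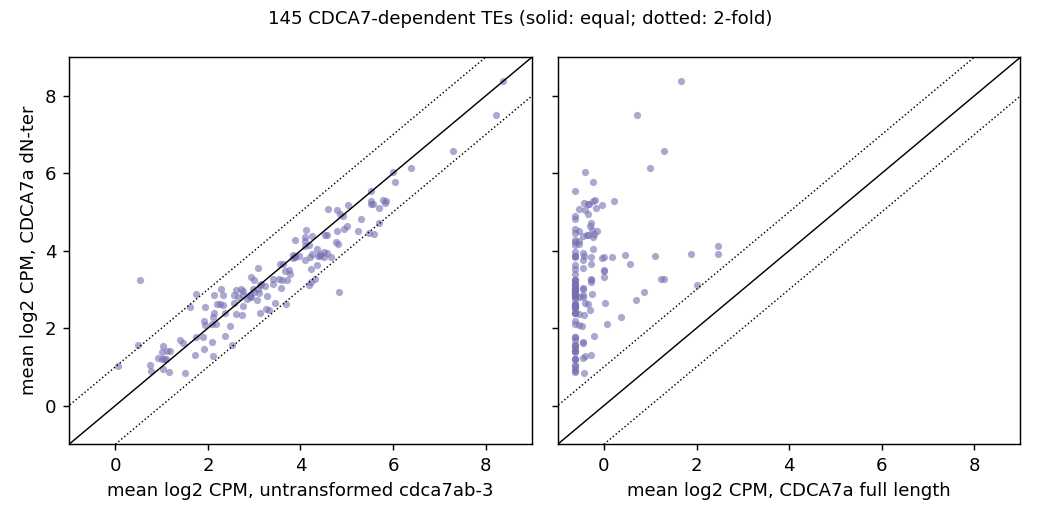
Mean log2 CPM of each of the 145 tested CDCA7-dependent TEs in dN-ter plants (vertical axis) against its mean in untransformed cdca7α cdca7β-3 plants (left) and in plants with full-length CDCA7α (right); a point is a TE, the solid line marks equal levels and the dotted lines 2-fold. On the left the TEs follow the line of equal levels, 138 of them within 2-fold by the fitted fold change, and on the right all 145 lie above that line.

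Measured against the WT instead, dN-ter and untransformed plants gave TE calls of nearly the same number. In dN-ter plants 139 of the 145 TEs were called higher than in the WT, against 1.31% of all features called higher and 0.08% lower. In untransformed plants 136 were called higher than in the same WT plants, against 1.32% higher and 0.0914% lower over all features. The median log2 fold change was 6.82 in dN-ter and 6.77 in untransformed plants. Since no WT library had more than 3 counts for 128 of the 145 TEs, these medians depend on the prior count. With such TEs at their lower bound the medians were 3.26 and 3.52. The 128 TEs passed the filter on low counts only through reads in other groups. Their calls against the WT were therefore largely fixed by the filter, and are given as a description. Of all 420 TEs, 181 were called higher and 1 lower (AT4TE10320) in dN-ter than in the WT, and 187 higher and 0 lower in untransformed plants. TEs were thus most of the 229 and 232 features called higher in dN-ter and untransformed plants.

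Against full-length CDCA7α, 136 of the 145 TEs were called higher in dN-ter plants (median log2 fold change 6.47, or 2.37 with the 123 TEs of at most 3 counts per full-length library at their lower bound). The background was 4.07% of features higher and 1.32% lower. The 123 TEs passed the filter only through reads in other groups, so their calls too were largely fixed by it. In all, 196 TEs were higher and 4 lower (AT4TE10320, AT2TE09345, AT3TE37850 and AT5TE31350). Against C183S C209S, which shares the mutant background, 0 of the 145 TEs were called and the median was 0.14, with a background of 0.337% higher and 0.194% lower. A pair of TEs outside the list, AT2TE82905 and AT3TE87270, was called higher in dN-ter than in C183S C209S plants. Their highest levels in dN-ter plants were 20.3 CPM, in plant 3, and 46.3 CPM, in plant 2, with medians of 0.768 and 0. Without dN-ter plant 2, dN-ter plant 5 or any C183S C209S plant but plant 6, 0 TEs were called higher, whereas 4 were without dN-ter plant 3 and 8 without C183S C209S plant 6.

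The 5 TEs of the list with the highest mean CPM in untransformed plants were above the WT in every dN-ter plant. AT3TE60425 had 36.7 to 866 CPM in dN-ter (median 466), 596, 362, 463 and 122 CPM in untransformed plants and 0.827 to 3.59 CPM in the WT. Its lowest dN-ter value was in plant 2 and its highest in plant 3, and the groups overlapped, with a log2 fold change of 0.31 (95% interval -1.89 to 2.51). AT4TE15030 had 121 to 318 CPM in dN-ter (median 163), 507, 213, 426 and 172 CPM in untransformed plants and 0.384 to 1.28 CPM in the WT. In 4 of 6 dN-ter plants it was below all untransformed plants, and the log2 fold change was -0.79 (SE 0.97). AT3TE63540 had 25.4 to 222 CPM in dN-ter (median 98.2) and 171, 107, 312 and 105 CPM in untransformed plants, with a log2 fold change of -0.53 (SE 0.89).

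AT3TE62685 was the most even of the 5 TEs, with 41.0 to 97.2 CPM in dN-ter (median 72.0) and 87.9, 76.5, 81.4 and 88.9 CPM in untransformed plants. Its log2 fold change was -0.20 (SE 0.78), and its mean in dN-ter was at least 75.1-fold higher than in the WT, where it had at most 3 counts per library. AT5TE42420 had 8.84 to 117 CPM in dN-ter (median 16.4) and 51.9, 13.9, 195 and 36.2 CPM in untransformed plants. Its place among the 5 rests on untransformed plant 4, at 195 CPM, and by mean log2 CPM other TEs of the list ranked above it. In 3 dN-ter plants it lay below all untransformed plants, the log2 fold change was -1.13 (SE 0.89), and the dN-ter mean was at least 35.1-fold higher than in the WT and at least 20.7-fold higher than in full-length plants. Adjusted p for these 5 TEs was between 0.890 and 0.996 against untransformed plants, at most 0.00358 against the WT and at most 0.0107 against full length (edgeR with Benjamini-Hochberg adjustment).

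The CDCA7-dependent TEs varied between dN-ter plants as they did between untransformed plants, with a median SD of log2 CPM of 0.597 and 0.598. A few were on or off in single plants. Among the 160, 5 had no read in a dN-ter plant and at least 10 reads in another, against 4 among untransformed plants. AT1TE48775 had 59, 30, 111, 0, 93 and 54 reads in the dN-ter plants and 0, 61, 0 and 0 in the untransformed plants. AT1TE48730, which is not in the list, had the reverse distribution, with 0, 0, 0, 55, 0 and 0 reads in the dN-ter plants and 46, 25, 44 and 60 in the untransformed plants. Every one of these 10 plants therefore expressed at least 1 of the pair, and untransformed plant 3 expressed both.

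AT1TE48730 was the feature that limma voom called (log2 fold change -5.67, adjusted p = 0.0283 after Benjamini-Hochberg adjustment), whereas edgeR gave -1.88 (SE 1.34, adjusted p = 0.88). Its log2 fold change in edgeR ranged from -8.41 to -1.52 when single plants were left out, and the largest decrease was reached without dN-ter plant 4. In the 7 plants with C183S C209S the same pair was split, with 64, 0, 0, 39, 130, 0 and 85 reads on AT1TE48730 and 0, 37, 29, 0, 48, 50 and 0 on AT1TE48775. Over the 17 plants of these 3 groups, 7 expressed the first alone, 8 the second alone and 2 both. In the WT and full-length plants neither TE had more than 1 read. The pair was noticed after its values were seen, and reads that match several similar TEs could have been divided between them in counting, which was not tested.

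**Figure D4:**
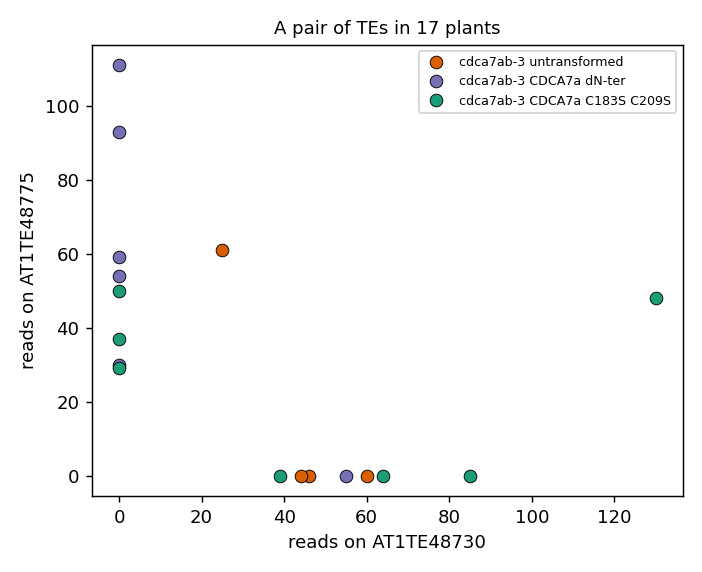
Reads on AT1TE48775 (vertical axis) against reads on AT1TE48730 (horizontal axis) in the 17 plants of 3 genotypes, a point being a plant. The dN-ter plants lie on the axes, 5 with the second TE alone and 1 with the first alone, and 2 plants of the other genotypes have reads on both.

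Among genes listed as silenced by DNA methylation, none of those tested passed the threshold between dN-ter and untransformed plants. Of 8 listed, 5 were tested, and their log2 fold changes against untransformed plants lay between -0.12 and 0.20, with a median of 0.04. SNC1 and RPP5, immune receptor genes of a single cluster, differed by 0.04 and -0.06. Neither was silent in the WT, where they had 477 to 768 and 404 to 652 reads. FWA, a homeobox gene silenced in leaves, had 3, 0, 0, 0, 1 and 0 reads in the dN-ter plants, and SDC, an F-box gene, had none. Both had too few reads to be tested. MRD1 stood apart, with 0 to 3.99 CPM in dN-ter (median 1.52), 0.499, 1.80, 1.22 and 2.92 CPM in untransformed plants, 7.50 to 12.4 CPM in the WT and 0 to 0.247 CPM in full-length plants. Both mutant groups lay between the WT and the full-length plants, apart from dN-ter plant 3, which had no read. MRD1 fell by 2.39 on the log2 scale in dN-ter against the WT (adjusted p = 0.037, edgeR with Benjamini-Hochberg adjustment), and was at least 1.16-fold higher than in full-length plants (adjusted p = 0.0362).

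Among the genes of the silencing machinery, none passed it either. Of 27 genes for CG methylation and heterochromatin, 22 were tested, and their median log2 fold change against untransformed plants was 0.00, with 11 higher, 11 lower and 0 called. Of 20 genes for RNA-directed DNA methylation and silencing, 19 were tested, with a median of 0.11, 14 higher and 0 called. AGO1, the main slicer of microRNA targets, had 46.1 to 65.2 CPM in dN-ter (median 55.5) and 47.4, 43.4, 38.9 and 51.6 CPM in untransformed plants. Against full-length plants 1 of the 22 genes tested of the first list was called, a share close to the 4.07% of all features called higher. It was HTA8, which encodes a histone H2A.Z, with 0.917 to 7.98 CPM in dN-ter and 0 to 1.59 CPM in full-length plants.

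The 5 features of lowest p in each direction of the comparison with untransformed plants were all genes, and none passed the threshold. They were picked by p, so groups that do not overlap follow in part from that choice. The share of all features whose groups did not overlap was not counted. Of those higher in dN-ter, the first was MAF5, a MADS-box gene of the FLC family of floral repressors, which lies in a cluster of similar genes between which reads could be divided. It had 78, 65, 0, 47, 36 and 0 reads in the dN-ter plants and 0 in each untransformed plant. It was thus expressed in 4 dN-ter plants, and also in full-length plants, whose median was 5.83 CPM and whose highest level was 17.9 CPM. Its mean in dN-ter was at least 10.9-fold higher than in untransformed plants (adjusted p = 0.509 by edgeR with Benjamini-Hochberg adjustment), and against C183S C209S it was called higher (log2 fold change 5.73, SE 1.35, adjusted p = 0.0359).

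LUP5, a gene for an oxidosqualene cyclase, had 1, 48, 10, 0, 8 and 0 reads in the dN-ter plants and 0 in the untransformed plants. KU70, which encodes a DNA end-binding protein of double-strand break repair, had 3.95 to 8.41 CPM in dN-ter (median 6.30) and 2.00, 2.57, 3.95 and 3.12 CPM in untransformed plants. All 6 dN-ter plants were above all 4 untransformed plants for KU70, though the closest were both near 3.95, and the 95% interval of the log2 fold change was 0.48 to 1.71. In the WT it had 4.69 to 7.50 CPM, a range that held 4 of the 6 dN-ter plants. AT1G18320 (log2 fold change 2.42) and AT1G11330 (2.27) completed the 5 that were higher.

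Those lower in dN-ter were AT5G09450, AT4G01985, CYS2, SLAH3 and AT5G44572. SLAH3, a gene for an anion channel of guard cells, had 2.16 to 6.50 CPM in dN-ter (median 4.18) and 8.49, 10.0, 14.6 and 11.5 CPM in untransformed plants. Its groups did not overlap, its log2 fold change was -1.36 (SE 0.34), and against full length it fell by 1.62 (adjusted p = 0.0045, edgeR with Benjamini-Hochberg adjustment). AT5G09450 had 6.42 to 8.47 CPM in dN-ter (median 7.25) and 16.5, 11.6, 13.4 and 11 CPM in untransformed plants, again without overlap, with a log2 fold change of -0.82 (SE 0.19). CYS2, a gene for a cystatin, had at most 1.11 CPM in dN-ter and 1.50, 26.7, 19.4 and 1.87 CPM in untransformed plants. Against the WT, neither SLAH3 (-0.04) nor CYS2 (0.30) passed the threshold in dN-ter plants. AT5G09450 had 31, 28, 33, 27 and 36 reads in the WT and 33, 30, 30, 14, 37 and 24 in dN-ter. Scaled to library size, every dN-ter plant lay below every WT plant for this gene.

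Salicylic acid defence genes had high levels in some dN-ter plants, but none passed the threshold against untransformed plants. The summed level of the 16 listed genes was 305.7, 3402, 872, 121, 539.7 and 245.8 CPM in the dN-ter plants. It was 197.8, 417.9, 165 and 401.5 CPM in the untransformed plants. Plants 2, 3 and 5 of dN-ter were above all untransformed plants, and plant 4 was below them all. Of the 15 genes tested, 14 were higher and 1 lower in dN-ter, 0 were called, and the median log2 fold change was 1.54, which dropped to 0.31 without dN-ter plant 2.

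PR1, a secreted pathogenesis-related protein and the usual marker of salicylic acid signalling, had 1.33, 15.1, 177, 0, 10.1 and 0.553 CPM in the dN-ter plants and 2.00, 5.65, 0.304 and 0.833 CPM in the untransformed plants. The level exceeded that of all untransformed plants in 3 dN-ter plants, and edgeR gave a log2 fold change of 3.91 (SE 1.50) with an adjusted p of 0.65 after Benjamini-Hochberg adjustment. BGL2, the glucanase PR2, had 33.2, 1415, 196, 10.5, 69.0 and 22.4 CPM in the dN-ter plants and 22.5, 127, 21.3 and 52.1 CPM in the untransformed plants. WRKY70, a transcription factor of the pathway, had 119, 225, 147, 35.7, 186 and 75.8 CPM in the dN-ter plants and 50.4, 34.2, 35.8 and 45.8 CPM in the untransformed plants. WRKY70 was above all untransformed plants in 5 of 6 dN-ter plants, and its log2 fold change was 1.67 (SE 0.63).

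**Figure D5:**
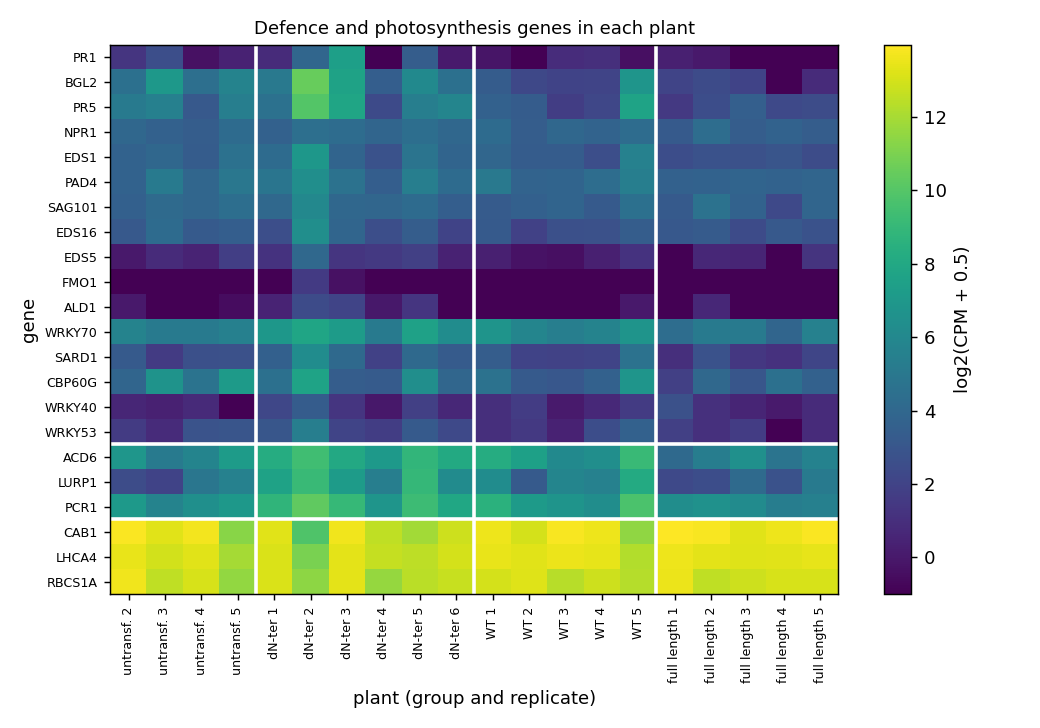
Level of 16 salicylic acid defence genes (top), 3 further genes called by DESeq2 (middle) and the 3 photosynthesis genes of highest level (bottom) in each plant of 4 genotypes (columns); the colour is log2(CPM + 0.5). dN-ter plant 2 has the highest levels of most defence genes, BGL2 at 1415 CPM among them, and the lowest of CAB1, at 917 CPM.

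The 7 features that DESeq2 called belong partly to the same group. PCR1, LURP1, AT3G22235 and ACD6 were higher in dN-ter. ACD6, an ankyrin-repeat protein that promotes salicylic acid signalling, had 139 to 655 CPM in dN-ter (median 292) and 116, 35.4, 53.2 and 149 CPM in untransformed plants. LURP1, a gene induced by pathogens, had 41.2 to 559 CPM in dN-ter (median 170.2) and 4.99, 3.60, 28.9 and 47.1 CPM in untransformed plants. For each of the 4 genes, dN-ter plant 4 was the only dN-ter plant within the range of the untransformed plants. The WT plants, however, overlapped the dN-ter plants for all 4. PCR1 had 81.4 to 848 CPM in the WT, LURP1 9.13 to 288 CPM and AT3G22235 101 to 833 CPM. ACD6 had 228 to 2217 reads in the WT and 303 to 2730 reads in dN-ter. Their log2 fold changes in edgeR were 2.42 (PCR1), 3.55 (LURP1), 3.12 (AT3G22235) and 1.99 (ACD6), with adjusted p of 0.523 to 0.633 after Benjamini-Hochberg adjustment, and DESeq2 gave adjusted p of 0.0511 to 0.0751.

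The 3 features called lower by DESeq2 were AT2G25450, AT4G16240 and LTP4. AT2G25450, an oxygenase-like gene, had 81.8 to 300.3 CPM in dN-ter (median 224) and 443, 690.0, 606 and 303 CPM in untransformed plants. No dN-ter plant overlapped the untransformed plants, although the nearest values were 300.3 and 303, and the share of all features that separate so was not counted. The WT range of AT2G25450 was 222 to 527 CPM, which overlapped that of dN-ter. LTP4, a lipid transfer protein gene, had 1.98 to 51.4 CPM in dN-ter (median 7.10) and 24.0, 439, 228 and 272 CPM in untransformed plants, with a log2 fold change of -4.02 (SE 1.27). In the WT, LTP4 had 2.61 to 23.6 CPM and AT4G16240 had 6.20 to 72.7 CPM, ranges that contain most of the dN-ter values.

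Against full-length plants, 495 nuclear genes were called higher and 220 lower in dN-ter. These counts rested largely on dN-ter plant 2, without which they were 93 and 56, and the 945 features called in all became 309. Without full-length plant 1 or 5 the total was 599 or 547. In the defence list 8 genes of 15 tested were called higher (PR1, BGL2, PR5, WRKY70, EDS1, PAD4, EDS5 and SARD1), against 4.07% of all features, and 1 without dN-ter plant 2. EDS1 and PAD4 form a complex that relays signals of immune receptors, and SARD1 activates salicylic acid synthesis. SARD1 had 3.21 to 76.5 CPM in dN-ter (median 14.2) and 1.50 to 6.36 CPM in full-length plants, and edgeR put the log2 fold change at 2.85 (SE 0.70), with an adjusted p of 0.0131 after Benjamini-Hochberg adjustment. Against the WT only PR1 of the list was called higher, at 5.53 on the log2 scale (SE 1.59) with an adjusted p of 0.0634 in edgeR after Benjamini-Hochberg adjustment. The size of this change rests largely on dN-ter plant 3, at 177 CPM, where the other dN-ter plants had at most 15.1 CPM. The WT plants themselves summed to between 121 and 717 CPM for the list.

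The 21 listed nuclear photosynthesis genes were all lower in dN-ter than in untransformed plants, and 0 passed the threshold. The median log2 fold change was -0.37, and -0.17 without dN-ter plant 2. The summed level was 20384 to 120150 CPM in dN-ter and 40460 to 138000 CPM in untransformed plants, so that only dN-ter plant 2 lay outside the range of the untransformed plants. CAB1, a light-harvesting chlorophyll-binding protein with closely similar copies that may share its reads, had 917 to 12587 CPM in dN-ter (median 6656) and 14978, 9901, 13292 and 2523 CPM in untransformed plants. It was the only gene of the 21 called against full length (1.32% of all features were lower), where it fell by 1.02 on the log2 scale (SE 0.36, adjusted p = 0.085, edgeR with Benjamini-Hochberg adjustment). The mesophyll markers include CAB1 and RBCS1A, and the part that leaf state or cell composition had in these differences was not tested. In such bulk libraries, fewer cells of a type and less RNA per cell cannot be told apart.

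The remaining lists gave 0 calls each against untransformed plants. Their median log2 fold changes were 0.32 for jasmonate and wounding (10 tested), -0.04 for abscisic acid and cold (7), -0.48 for heat shock (3), 0.01 for leaf senescence (12) and -0.07 for the circadian clock (12). They were 0.23 for flowering (10), 0.33 for the cell cycle and DNA replication (4) and -0.55 for the DNA damage response (4). Among the markers, the median was -0.59 for mesophyll (3), 0.73 for guard cells and epidermis (5) and -0.27 for vasculature (3), with single genes tested for roots (0.06) and for flowers and meristems (-1.94). RD22, a gene induced by abscisic acid and drought, had 198 to 831 CPM in dN-ter (median 639.9) and 1046, 975, 1324 and 1155 CPM in untransformed plants. Its groups did not overlap, though the share of all features that separate so was not counted. Its adjusted p was 0.616 (edgeR with Benjamini-Hochberg adjustment). RD22 had 800 to 3284 reads in the WT, however, and 827 to 3086 reads in dN-ter. The flowering regulators FT and SVP had 349.6 to 796 and 112 to 159 CPM in dN-ter, ranges that overlapped those of untransformed plants.

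Against full length, where 4.07% of all features were called higher and 1.32% lower, few genes of these lists were called. They were TAT3 of 10 tested for jasmonate and wounding, SAG21 of 12 for leaf senescence, and LHY and RVE8 (higher) and PRR5 (lower) of 12 for the circadian clock. Such small counts are not read as results about the lists. LHY, RVE8 and PRR5 are clock genes whose transcripts peak at set hours of the day, and the hour at which each leaf was taken was not given in the sources used here. Against C183S C209S, 57 nuclear genes were higher and 32 lower, 93 features in all, among them EDS1, SAG13 and MAF5 (higher) and WRKY40 and HSP17.6A (lower). Each of the latter was high in a single C183S C209S plant, WRKY40 with 464 reads in plant 6 and at most 20 in the other plants of that group, and HSP17.6A with 323 reads in plant 4 and at most 1 in the others. This total was the least stable of those described, being 13 without dN-ter plant 2, 647 without dN-ter plant 3 and 607 without C183S C209S plant 6, and leaving out any other library but C183S C209S plant 5 also moved it by more than 1.5-fold, to between 39 and 243.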

How the data were processed

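Leaf RNA was counted as 3′ tags. The authors collapsed duplicates by molecular identifier, aligned the reads with STAR 2.7.11a to TAIR10 and quantified the sense strand with Salmon 1.10.1 over AtRTD3 transcripts, TAIR10 TEs and the transgene. The deposited tables hold these estimated counts, which need not be whole (expected counts), without normalization. The deposited RPM tables, which have no transgene entry, were not used. Here transcripts were summed per locus and rounded, and a feature was tested where 3 or more libraries of the set had 10 or more reads. All 82 libraries entered a single fit with a term per genotype in edgeR 4.0.16 (quasi-likelihood test, TMM normalization) under R 4.3.3, adjusted by Benjamini-Hochberg. DESeq2 1.42.0 and limma voom 3.58.1 were alternatives, as were other scaling, no filter, fewer libraries and each plant left out. Levels of the tag and of TEs are log2 CPM with a prior count of 2. Permutation tests, in scipy 1.17.1, enumerated every regrouping, and intervals invert them. Scripts were tested on simulated data. A fold against a group of at most 3 counts per library is a lower bound. Symbols come from RefSeq's TAIR10.1 table by locus tag. Named features were the transgene and its neighbours, the 5 of lowest p in each direction, the 5 listed TEs of highest mean CPM in untransformed plants, leading members of gene lists, and the members of short counts. Members and lists were chosen with earlier results of these data known. Plants are the replicates, and plants of the same number were not related by the labels.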

Additional observations from a re-analysis of the deposited data

Results flagged for a closer look

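Of 46 groups of values examined, in which chance would set about 1 in 20 apart, 5 held a plant far from the others of its group. TEs took 0.8619% of counts in dN-ter plant 5, and 0.7309% in the next plant. SMP2, the neighbour of CDCA7α, was at -0.629 log2 CPM in dN-ter plant 3, where it had no read, and the next plant was at 4.13. AT1TE48730 was at 4.692 log2 CPM in dN-ter plant 4 and at -0.629 in the other 5 dN-ter plants, none of which had a read. The summed level of salicylic acid defence genes was 3402 CPM in dN-ter plant 2 and 872 CPM in the next plant. PR5, a thaumatin-like defence protein, was at 3.194 log2 CPM in untransformed plant 4, below the next plant at 5.154.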

How the results depend on the processing

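Between dN-ter and untransformed plants, 0 features were called by edgeR under each scaling, filter, choice of libraries and left-out plant, with DESeq2 calling 7 and limma voom 1. Unadjusted p under 0.05 was reached by 741 to 1813 features when plants were left out, and 1226 by DESeq2. Leaving out plants moved the tag level difference between -0.35 and -0.07 against untransformed and between -2.29 and -1.53 against full-length plants, the TE share between -0.0478 and -0.0046, and the TE level between -0.19 and -0.02. The counts of features against the WT lay between 210 and 351 (dN-ter) and between 200 and 243 (untransformed). Against full length, 945 features became 480 in a fit of only the compared libraries and 309 to 1359 with plants left out. Against C183S C209S, 93 became 147 without a filter, 200 by DESeq2, 2 with only the compared libraries and 13 to 647 with plants left out, and the 2 TEs called became 0 by DESeq2 and with only the compared libraries, and 0 to 8 with plants left out. The cause of these shifts was not tested. With replicate number as a block, 0 features were called, and the deviations of same-numbered plants correlated at -0.347 to 0.0943, so the numbers did not pair the plants. The RPM alternatives for the tag were not run. At 6 against 4 plants the limit was the spread between plants, and for the tag the depth, since 3 expected reads can appear as 0.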

Other observations

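The 2 plants labelled cdca7_ab_CDCA7_no_YFP, which were also of the double mutant, had 0 tag reads and TE levels of 3.17 and 3.05, within the range of the dN-ter plants. The 6 plants with CDCA7α R35A N42L, altered at 2 residues of the N-terminus, had 1, 11, 0, 11, 6 and 0 tag reads and TE levels of 3.04, -0.44, 3.60, -0.33, -0.28 and 3.04. The full-length plants with 1, 3 and 2 tag reads had TE levels of -0.38, -0.20 and -0.25, so few tag reads were found in plants with high and with low TE levels.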
